A study of Mus musculus with 10 samples.

Results

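The heat shock chaperones of the cytosol, nucleus and mitochondria were described in splenic type 2 conventional dendritic cells (cDC2), the subset of antigen-presenting cells that primes helper T cells. Members were all measured gene symbols of the Hsp, Dnaj and Cct families, together with Bag1 to Bag5, Hsf2, Chordc1, Cacybp, Ahsa1 and Stip1. The chaperones of the endoplasmic reticulum (ER) Hspa5, Hsp90b1, Dnajb9, Dnajb11, Dnajc3 and Dnajc10, and the proteoglycan gene Hspg2, were left out by that rule. The rule chose 85 of the 19938 genes measured. Hsf1, Hsp90ab1 and Hspa1b also belong to it and were not analysed here. The name of the group covers most members but not all of them, since Hspa13, Dnajc1, Dnajb12 and Dnajb14 encode proteins of the ER.

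Cells came from the spleens of 4 groups of mice. Notch2KO SRBC mice carried CD11c-Cre with floxed Notch2 alleles and were taken 24 hours after an intraperitoneal injection of 200000000 erythrocytes of sheep (SRBC), which act as a particulate antigen (3 arrays). Notch2KO untreated mice had the same genotype and no injection (2 arrays). WT SRBC mice had the wild-type genotype and the same injection (3 arrays), and WT untreated mice had the wild-type genotype and no injection (2 arrays). CD11c-Cre acts in cells that express the integrin gene Itgax, so the deletion is not limited to cDC2, and the ages and sexes of the mice are not given in the sources used here. All spleens were taken apart enzymatically with Collagenase B and DNase, CD11c+ cells were enriched and cDC2 sorted, and RNA was hybridised on 1-colour Affymetrix Mouse Gene 1.0 ST arrays. The labels name no vehicle injection, so the injection and the cells injected cannot be told apart.

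Hsp70 proteins bind exposed stretches of unfolded proteins in cycles driven by ATP. J-domain proteins (the Dnaj families) deliver clients and start ATP hydrolysis, while Hsp110 and BAG proteins exchange the nucleotide and let the client go. Hsp90 acts later on kinases and receptors with the help of co-chaperones, and the barrel-shaped TRiC complex (the Cct genes) folds actin and tubulin. In mammals the transcription factor Hsf1 is released from chaperones when unfolded proteins build up, binds repeated GAA units called heat shock elements and raises a subset of these genes, whereas TRiC subunits and many J-domain proteins are made at steady levels. Heat shock genes and immediate-early genes such as Fos are also known to rise in many cells while a tissue is digested and sorted.

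Values below are log2 intensity, and differences are log2 differences ± the standard error (SE) of 1 limma fit over all 10 arrays. A gene was called where its adjusted p was under 0.05 after Benjamini-Hochberg adjustment over the 19938 genes, and all adjusted p-values are limma's. Nothing in the labels says that arrays of a group came from separate mice, so p-values measure the spread between these arrays, which may be technical. In a bulk sample, fewer cells of a type and less RNA per cell cannot be told apart. Of the 85 members, 66 were brighter and 19 dimmer than the median gene, whose mean was 5.06. No filter on low values was applied.

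Array medians lay between 29.5 and 31.7 on the linear scale. WT SRBC 1 stood apart from its group (r = 0.928 and 0.929 over the brighter genes, against 0.984 between the others), and so did Notch2KO SRBC 3 (r = 0.936 and 0.947, against 0.972). The floxed gene Notch2 had 7.96, 7.64 and 7.23 in Notch2KO SRBC arrays, 8.37 and 8.17 in Notch2KO untreated arrays, 7.58, 7.09 and 7.10 in WT SRBC arrays and 8.11 and 8.14 in WT untreated arrays. It was not lower in Notch2KO than in WT, and since the sources used here do not say whether its probes lie in the deleted part, this level does not check the genotype. Clec4a4 and Esam, surface genes of the Notch2-dependent cDC2 subset, were lower in untreated Notch2KO than in untreated WT cells (-4.09 ± 0.35 with an adjusted p of 5.8e-05, and -1.84 ± 0.33 with an adjusted p of 0.00664). Of the other cDC2 markers, Cd4 was lower (-1.03, adjusted p = 0.0202) and Cd209a was higher (1.73, adjusted p = 0.000921). Irf4 did not pass (-1.49, adjusted p = 0.0528). After SRBC, Clec4a4 (-2.91) and Esam (-1.15) were again lower in Notch2KO, and Itgam (1.82) and Cd209a (2.07) were higher. The cDC2 genes Itgax, Sirpa and Flt3 had values between 8.50 and 10.66 over all arrays. Summed linear intensity of 7 monocyte markers was 9616 to 12225 in Notch2KO SRBC, 9880 to 11172 in Notch2KO untreated, 1673 to 1990 in WT SRBC and 1473 to 1712 in WT untreated arrays.

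In WT cDC2, 11 of the 85 chaperone members were lower and 3 were higher 24 hours after SRBC. The nucleotide exchange factor Hsph1 (Hsp110) was 25.9-fold lower, the inducible Hsp70 gene Hspa1a 21.5-fold lower and their J-domain partner Dnajb1 8.59-fold lower than in untreated WT cells. Among all 19938 genes these were the lowest differences, ranked 1, 2 and 3. The 14 members that passed stand against a background of 1.97% of all genes lower and 1.82% higher (3.79% in either direction). Brighter genes were called more often. Among genes brighter than the median gene 3.5% were lower and 3.07% higher, against 15.2% and 4.55% of the brighter members. The median member differed by -0.08 and the median gene by 0.02, and of the 71 members that did not pass, 56 differed by less than 0.5. At an unadjusted p under 0.05 there were 27 members, and the share of all genes at that cutoff is not given here. Arrays of the groups did not overlap for 29 members that were lower and 8 that were higher, against 15.7% and 17.8% of all genes.

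Hsph1 had 6.23, 6.39 and 6.40 in WT SRBC arrays, against 11.26 and 10.81 in WT untreated arrays. The groups were separated by more than 4 log2 units, and the difference was -4.69 ± 0.25 (adjusted p = 9.14e-06). Hspa1a had 7.13, 6.62 and 6.98 in WT SRBC arrays, against 11.41 and 11.27 in WT untreated arrays, again with no overlap. Its difference was -4.43 ± 0.54 (adjusted p = 0.00172). The coding sequence of Hspa1a is nearly identical to that of Hspa1b, so its probes may read both genes. Dnajb1, whose protein stimulates Hsp70 in the cytosol and nucleus, had 6.46, 6.07 and 6.48 in WT SRBC arrays, against 9.70 and 9.18 in WT untreated arrays. All 3 SRBC arrays lay below both untreated arrays, with a difference of -3.10 ± 0.30 (adjusted p = 0.000477).

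Of the 5 measured members that make up Hsp90 and its listed co-chaperones, 3 were lower. Hsp90aa1, the inducible cytosolic Hsp90, had 10.73, 11.07 and 10.97 in WT SRBC arrays, against 12.37 and 12.28 in WT untreated arrays, a difference of -1.40 ± 0.14 (adjusted p = 0.000536) with no overlap. Of the 4 co-chaperones listed with Hsp90, Ahsa1 and Chordc1 passed. Ahsa1, which speeds up the Hsp90 ATPase, had 6.83, 7.27 and 7.06 in WT SRBC arrays, against 8.09 and 8.18 in WT untreated arrays (-1.08 ± 0.20, adjusted p = 0.0122). Chordc1, an Hsp90-binding protein with zinc-binding domains, had 6.49, 7.23 and 6.75 in WT SRBC arrays, against 7.77 and 7.92 in WT untreated arrays (-1.02 ± 0.22, adjusted p = 0.031). Neither gene had overlapping groups. Stip1, which bridges Hsp70 and Hsp90, differed by -0.54 ± 0.19 (adjusted p = 0.159) and Cacybp, a binding partner of calcyclin, by -0.76 ± 0.22 (adjusted p = 0.0928), and neither passed.

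Hspd1 and Hspe1, which encode the mitochondrial chaperonin Hsp60 and its co-chaperonin Hsp10, fell by a similar amount. Hspd1 had 9.07, 9.0 and 8.88 in WT SRBC arrays, against 10.20 and 10.03 in WT untreated arrays (-1.13 ± 0.19, adjusted p = 0.00732). Hspe1 had 10.63, 10.70 and 10.59 in WT SRBC arrays, against 11.65 and 11.69 in WT untreated arrays (-1.03 ± 0.17, adjusted p = 0.00808). Both SRBC groups lay wholly below the untreated ones. The mitochondrial Hsp70 gene Hspa9 had 8.34, 8.58 and 8.53 in WT SRBC arrays, against 8.43 and 8.64 in WT untreated arrays. Its groups overlapped and it did not pass (-0.05 ± 0.18, adjusted p = 0.934), nor did the other 4 mitochondrial members, whose differences lay between -0.32 (Dnajc15) and -0.01 (Dnajc19).

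The constitutive Hsp70 gene Hspa8 had 11.74, 11.48 and 11.49 in WT SRBC arrays, against 12.34 and 12.31 in WT untreated arrays, a smaller difference of -0.76 ± 0.13 (adjusted p = 0.0102) with no overlap. Bag3, the BAG protein that links Hsp70 to small heat shock proteins and autophagy, had 5.55, 6.10 and 5.83 in WT SRBC arrays, against 7.44 and 6.95 in WT untreated arrays (-1.37 ± 0.25, adjusted p = 0.0132). Dnaja4, a J-domain protein of class A, was dimmer than the median gene and had 4.87, 4.86 and 4.96 in WT SRBC arrays, against 5.53 and 5.75 in WT untreated arrays (-0.74 ± 0.14, adjusted p = 0.0159). All 3 genes were lower on each SRBC array than on each untreated array. Where a member had several probe sets and passed the test, all of them moved the same way in the WT response, with -1.69 to -1.36 for Hsp90aa1, -0.91 to -0.76 for Hspa8, -1.43 and -1.13 for Hspd1 and -1.12 and -1.03 for Hspe1.

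**Figure D1:**
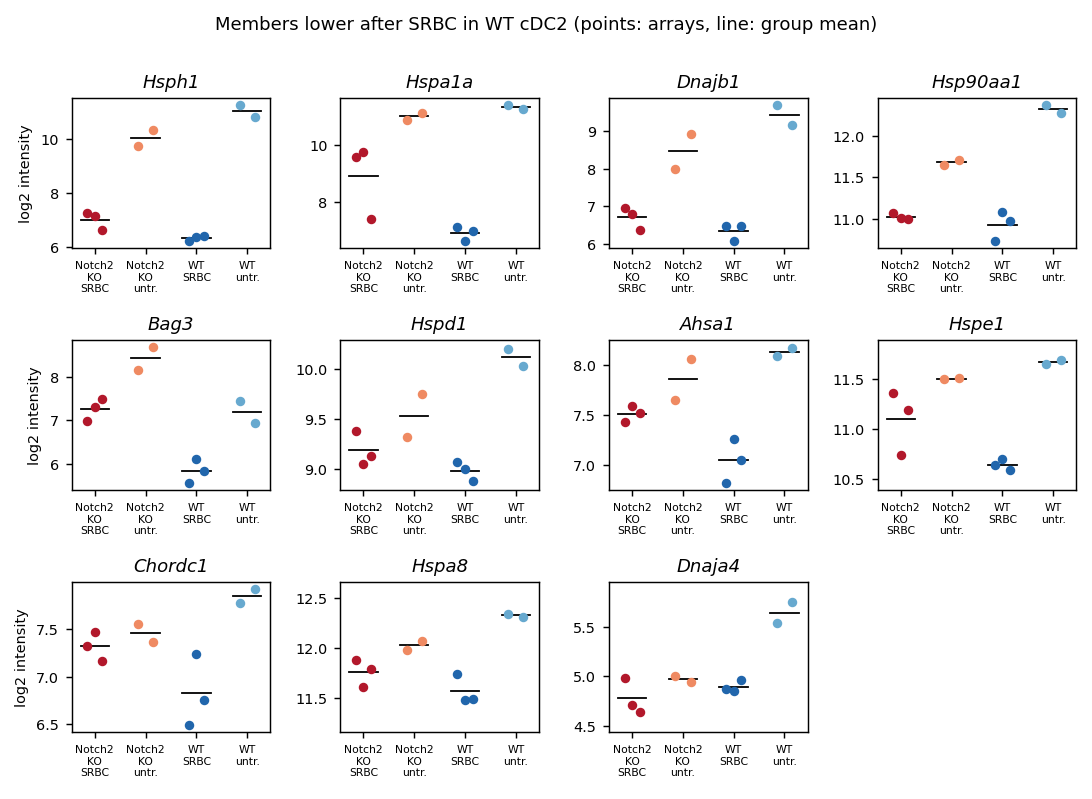
Log2 intensity (vertical axis, a scale of its own in each panel) of the 11 members that were lower after SRBC in WT cDC2, on each array of Notch2KO SRBC, Notch2KO untreated, WT SRBC and WT untreated groups (points) with the group mean (line). For every gene shown, each WT SRBC array lies below each WT untreated array, and Hsph1, Hspa1a and Dnajb1 show the widest gaps.

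Heat shock elements were searched near the starts of the members, because Hsf1 acts through them. RefSeq promoter windows (build GRCm38.p6, 250 bases before to 50 after an annotated start, which is position 0) were at hand for 70 of the 85 members. Windows were not at hand for Hsp90aa1, Hspa8, Hspa9, Hspa13, Hspb2, Bag4, Cct4, Dnajc2, Dnajc5, Dnajc5b, Dnajc11, Dnajc12, Dnajc18, Dnajc22 and Dnajc30. The 3-unit element GAANNTTCNNGAA, or its reverse complement TTCNNGAANNTTC, stood in the windows of 5 members (7.14%), against 179 of 27025 genes with a window (0.662%). It was found in 4 of the 9 members with a window that were lower in the WT response (Hsph1, Hspd1, Hspe1 and Chordc1), in neither of the 2 that were higher, and in 1 of 59 that did not pass (Dnajb6). The following sites, with the matching bases in capitals, belong to those members and to Hspa1a and Bag3, whose windows hold the shorter 2-unit element.
Hsph1, minus strand of chr5:149636279-149636308: gctgcagaTTCTGGAAAGTTCtcctcagta
Hspd1, minus strand of chr1:55088055-55088084: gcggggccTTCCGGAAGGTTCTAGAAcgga
Hspe1, plus strand of chr1:55088051-55088080: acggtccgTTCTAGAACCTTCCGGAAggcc
Chordc1, plus strand of chr9:18292260-18292289: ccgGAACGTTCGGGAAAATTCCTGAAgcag
Dnajb6, plus strand of chr5:29735844-29735873: agctccgaGAATCTTCCGGAAcgctagacc
Hspa1a, minus strand of chr17:34972242-34972271: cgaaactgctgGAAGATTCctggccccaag
Bag3, plus strand of chr7:128523603-128523632: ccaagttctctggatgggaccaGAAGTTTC

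Hspd1 and Hspe1 are neighbours that point away from each other on chromosome 1, and their lines show 1 site read from both strands. In Hspd1, Hspe1 and Chordc1 overlapping matches extend the run of units past the 13 bases of the 3-unit element. Matches began at positions 15 and 36 from the 2 annotated starts of Hsph1, at -4, 1 and 6 in Chordc1, at -139 and -144 in Hspd1, at -84 and -89 in Hspe1, and at -46 and -127 from the 2 annotated starts of Dnajb6. Dnajb6, a class B J-domain protein that holds back protein aggregation, had this element and did not pass the test in WT cells (0.23, adjusted p = 0.772). The 2-unit element GAANNTTC reads the same on both strands and lies within every 3-unit match. Its match began at position -104 in Hspa1a, 42 in Bag3, and -90 and -52 in Dnaja4. It stood in 7 of the 9 lower members (77.8%), in 10 of 59 that did not pass (16.9%) and in 9.04% of all genes. Dnajb1 and Ahsa1 were the lower members that had a window and neither element. A match is a run of letters and no measurement of binding.

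**Figure D2:**
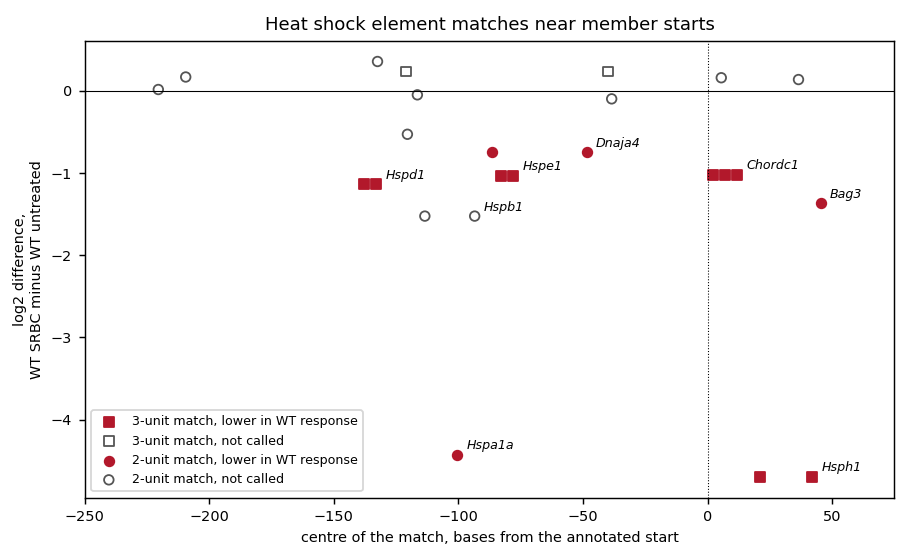
Log2 difference of WT SRBC minus WT untreated (vertical axis) against the centre of each heat shock element match, in bases from the annotated start (horizontal axis), for members with a match. Filled symbols mark members that passed the test and open symbols those that did not, squares the 3-unit and circles the 2-unit element. The matches of Hsph1, Chordc1 and Bag3 lie at or after the start and those of Hspa1a, Hspd1, Hspe1 and Dnaja4 before it.

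None of the 9 genes grouped as TRiC by their Cct symbols alone passed in limma in the WT response (1 at an unadjusted p under 0.05). Differences lay between -0.47 (Cct8, adjusted p = 0.385) and 0.36 (Cct8l1, adjusted p = 0.208), with a median of -0.08. Cct8l1 and Cct6b were dimmer than the median gene, with means of 3.43 and 2.91 over all arrays. Cct2 differed by -0.10, Cct3 by 0.25, Cct4 by -0.02, Cct5 by -0.34, Cct6a by -0.08 and Cct7 by -0.23. TRiC stayed uncalled in all 5 comparisons, and so did Tcp1, the subunit whose symbol does not start with Cct (0.21 ± 0.21 in the WT response, adjusted p = 0.693). Without both arrays that stood apart, Cct8 was the exception, at -0.52 in Notch2KO SRBC relative to WT SRBC (adjusted p = 0.0356).

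Among 8 members grouped as small heat shock proteins by their Hspb symbols alone, 0 passed in limma (1 at an unadjusted p under 0.05). Many small heat shock proteins hold unfolded proteins without ATP, but the symbol does not show this for Hspb11. Hspb1 (Hsp27) had 4.95, 5.50 and 5.16 in WT SRBC arrays, against 7.11 and 6.34 in WT untreated arrays. The groups did not overlap, yet the difference of -1.52 ± 0.47 did not pass (adjusted p = 0.106). It passed when only the WT arrays entered the fit (adjusted p = 0.0269). The other 7 differed by -0.05 (Hspb6) to 0.28 (Hspb11). Of 23 J-domain proteins of class C, 22 did not pass, from -0.61 (Dnajc18) to 0.77 (Dnajc14), and of 11 in class B, 10 did not, up to 0.32 (Dnajb5). In class B, Dnajb4, a partner of Hsp70 in the cytosol, had 7.96, 6.39 and 6.03 in WT SRBC arrays, against 8.80 and 8.42 in WT untreated arrays. WT SRBC 1 lay far above the other SRBC arrays, and the difference of -1.82 ± 0.45 missed the threshold (adjusted p = 0.0507), while without both arrays that stood apart it was -2.40 (adjusted p = 4.26e-05).

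The Hsp70 relatives Hspa12a, Hspa12b, Hspa1l, Hspa13 and Hspa14 did not pass in the WT response, between -0.59 (Hspa1l) and 0.61 (Hspa13). The Hsp110 genes Hspa4 (0.16) and Hspa4l (-0.22) did not pass either, unlike Hsph1 of the same role. In class A, Dnaja1, the abundant cytosolic J-domain protein, had 9.62, 10.71 and 10.57 in WT SRBC arrays, against 10.75 and 10.90 in WT untreated arrays (-0.53 ± 0.30, adjusted p = 0.416). WT SRBC 1 was the lowest by about 1 log2 unit, and both other SRBC arrays lay close to the untreated ones. Dnaja2 differed by -0.05. Bag1, Bag2, Bag4 and Bag5 lay between -0.12 and 0.42. Bag1 had 8.01, 9.57 and 9.55 in WT SRBC arrays, against 8.67 and 8.95 in WT untreated arrays, and Bag5 had 6.13, 7.61 and 7.74 in WT SRBC arrays, against 6.66 and 6.82 in WT untreated arrays. In both genes WT SRBC 1 lay below the untreated arrays and the other SRBC arrays above them. Without both arrays that stood apart Bag1 differed by 0.75 (adjusted p = 0.00659) and Bag5 by 0.93 (adjusted p = 0.00627), and Bag5 also passed without WT SRBC 1 alone (adjusted p = 0.045). In the same fit without both arrays Dnajc14 (0.99, adjusted p = 0.0025), Dnajb5 (0.55, 0.0354), Dnajc16 (-0.65, 0.0256) and Cacybp (-0.73, 0.0225) passed as well. The Hsp70-binding protein Hspbp1 lay at -0.25 and Hspbap1 at -0.07.

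Against this pattern 3 members rose in WT cells. Hsf2, a heat shock factor that binds the same element as Hsf1 and is best known from development and spermatogenesis, had 8.65, 8.59 and 8.64 in WT SRBC arrays, against 6.18 and 6.10 in WT untreated arrays. It was 5.62-fold higher, with the groups far apart (2.49 ± 0.27, adjusted p = 0.000975). Dnajc12, a J-domain protein that keeps aromatic amino acid hydroxylases folded, had 6.25, 6.67 and 6.57 in WT SRBC arrays, against 4.47 and 4.68 in WT untreated arrays. The groups did not overlap (1.92 ± 0.27, adjusted p = 0.00333). Hspa2, an Hsp70 best known from the testis, had 6.79, 6.69 and 7.74 in WT SRBC arrays, against 5.69 and 5.96 in WT untreated arrays (1.25 ± 0.29, adjusted p = 0.0353). WT SRBC 3 was the highest of these and the groups were separate.

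The calls of the WT response rested unequally on single arrays. Hsph1, Hspa1a, Dnajb1, Hsp90aa1 and Hsf2 passed with any 1 of the 10 arrays left out, their highest adjusted p being 0.0377 (Hspa1a). Leaving out WT untreated 1 cut the 14 calls to 5 and leaving out WT untreated 2 cut them to 7; Hspd1, Hspe1, Hspa8 and Ahsa1 were lost without either one (highest adjusted p 0.107 to 0.144), Bag3 and Dnajc12 without WT untreated 1 (0.197 and 0.0724), and Dnaja4, Chordc1 and Hspa2 without any of several arrays (0.157, 0.219 and 0.297).

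In Notch2KO cDC2 the same leading genes had lower values after SRBC, by smaller amounts. Hsph1 was 8.03-fold lower and Dnajb1 3.39-fold lower than in untreated Notch2KO cells, and these 2 were the members that passed, against a background of 0.166% of genes lower and 0.14% higher (0.306% in either direction). Among genes brighter than the median gene 0.281% were lower and 0.201% higher, against 3.03% and 0% of the brighter members. No member passed as higher. Arrays did not overlap for 18 lower and 12 higher members, against 12.2% and 16.1% of all genes. At an unadjusted p under 0.05 there were 13 members, and the share of all genes at that cutoff is not given here. The median member differed by -0.01 and the median gene by 0.03.

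Hsph1 had 7.27, 7.14 and 6.63 in Notch2KO SRBC arrays, against 9.72 and 10.32 in Notch2KO untreated arrays. No array of the groups overlapped (-3.01 ± 0.25, adjusted p = 0.000945), this was the lowest difference of all 19938 genes, and it passed with any 1 array left out. Dnajb1 had 6.95, 6.80 and 6.37 in Notch2KO SRBC arrays, against 8.00 and 8.93 in Notch2KO untreated arrays (-1.76 ± 0.30, adjusted p = 0.0386). Its groups were separate, but the call was lost when any of 9 of the 10 arrays was left out (highest adjusted p 0.269), and with the replicate number as a block (adjusted p = 0.078).

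Hspa1a had 9.58, 9.76 and 7.39 in Notch2KO SRBC arrays, against 10.89 and 11.12 in Notch2KO untreated arrays. All SRBC arrays were lower, but Notch2KO SRBC 3 lay more than 2 log2 units under the others, and the difference of -2.10 ± 0.54 did not pass (adjusted p = 0.159). Without Notch2KO SRBC 3 it was -1.34 and passed (adjusted p = 0.0389). Bag3 had 6.99, 7.31 and 7.50 in Notch2KO SRBC arrays, against 8.17 and 8.70 in Notch2KO untreated arrays, with no overlap (-1.17 ± 0.25, adjusted p = 0.0953). Hsp90aa1 had 11.07, 11.00 and 10.99 in Notch2KO SRBC arrays, against 11.64 and 11.71 in Notch2KO untreated arrays, with no overlap (-0.66 ± 0.14, adjusted p = 0.0834). Both genes passed without both arrays that stood apart (adjusted p = 0.0196 and 0.0131).

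Other members called in WT cells had small values in Notch2KO cells. Hspd1 had 9.38, 9.05 and 9.13 in Notch2KO SRBC arrays, against 9.32 and 9.75 in Notch2KO untreated arrays, which overlapped (-0.35 ± 0.19, adjusted p = 0.59). Hspe1 had 11.36, 10.74 and 11.19 in Notch2KO SRBC arrays, against 11.50 and 11.51 in Notch2KO untreated arrays (-0.41 ± 0.17, adjusted p = 0.463). Hspa8 differed by -0.27, Ahsa1 by -0.34, Dnaja4 by -0.19 and Chordc1 by -0.14. Cacybp (-0.03), Stip1 (0.02), Dnaja1 (-0.30) and Hspa9 (0.14) lay near 0. Hspb1 had 5.64, 6.53 and 5.26 in Notch2KO SRBC arrays, against 6.03 and 7.71 in Notch2KO untreated arrays, with overlap (-1.06 ± 0.47, adjusted p = 0.485).

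Of the genes that rose in WT cells, Hsf2 had 6.75, 6.84 and 7.81 in Notch2KO SRBC arrays, against 6.29 and 6.19 in Notch2KO untreated arrays (0.89 ± 0.27, adjusted p = 0.249). Dnajc12 had 5.10, 5.13 and 6.11 in Notch2KO SRBC arrays, against 4.79 and 4.95 in Notch2KO untreated arrays (0.58 ± 0.27, adjusted p = 0.519). In both genes the SRBC arrays lay above the untreated ones and Notch2KO SRBC 3 was the highest. Hspa2 had 7.10, 6.89 and 6.98 in Notch2KO SRBC arrays, against 6.43 and 6.05 in Notch2KO untreated arrays (0.74 ± 0.29, adjusted p = 0.398).

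**Figure D3:**
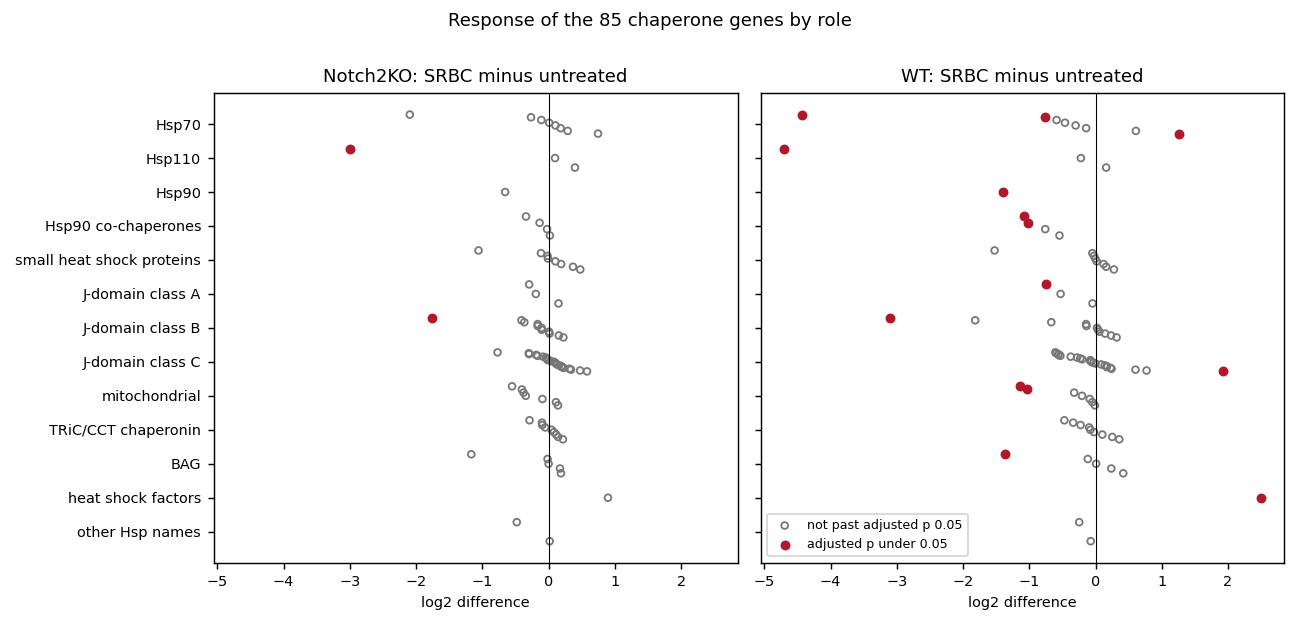
Log2 difference of SRBC minus untreated (horizontal axis) for all 85 members, arranged by role (vertical axis), in Notch2KO (left) and WT cells (right). Filled points passed an adjusted p of 0.05 and open points did not. The 2 filled points in Notch2KO cells are Hsph1 and Dnajb1, and the TRiC and most J-domain genes lie close to 0 in both genotypes.

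Whether the response itself differed between genotypes was tested as the Notch2KO response minus the WT response. No member passed, against a background of 0.01% of genes in each direction (4 genes, 0.0201%). At an unadjusted p under 0.05 there were 17 members, and the share of all genes at that cutoff is not given here. All 14 members called in WT cells had a smaller difference of the same sign in Notch2KO cells, but they had been selected for their size in WT cells. Of the 71 others, 46 had the same sign in both genotypes. The median member had an interaction of 0.12 and the median gene 0.01.

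For the lower genes the interaction was 1.69 ± 0.36 in Hsph1 (95% interval 0.91 to 2.47, adjusted p = 0.214), 2.33 ± 0.77 in Hspa1a (0.65 to 4.01, adjusted p = 0.587), 1.34 ± 0.42 in Dnajb1 (0.42 to 2.26, adjusted p = 0.54) and 0.74 ± 0.19 in Hsp90aa1 (0.32 to 1.17, adjusted p = 0.36). For the mitochondrial chaperonin it was 0.79 ± 0.26 in Hspd1 and 0.62 ± 0.24 in Hspe1. In Bag3 it was near 0, at 0.20 ± 0.36 (-0.58 to 0.99). For the higher genes it was -1.60 ± 0.39 in Hsf2 (-2.45 to -0.75, adjusted p = 0.328) and -1.34 ± 0.39 in Dnajc12 (-2.19 to -0.50, adjusted p = 0.453).

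The outcome of that test changed with the arrays that stood apart. Without Notch2KO SRBC 3, Hspa1a (3.09, adjusted p = 0.00519) and Hsf2 (-1.93, adjusted p = 0.0154) passed. Without WT SRBC 1, Dnajb4 passed (2.03, adjusted p = 0.0472). Without both, 7 members passed, namely Hspa1a (3.20, adjusted p = 0.000441), Hsf2 (-1.92, 0.00135), Dnajc12 (-1.80, 0.0016), Dnajb4 (1.90, 0.00801), Hsph1 (1.83, 0.00835), Hsp90aa1 (0.66, 0.0413) and Dnajc14 (-0.99, 0.0477). Leaving out arrays that stood apart also narrows the spread of other genes. The share of all genes called in these fits is not given here, so the member counts have no background.

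**Figure D4:**
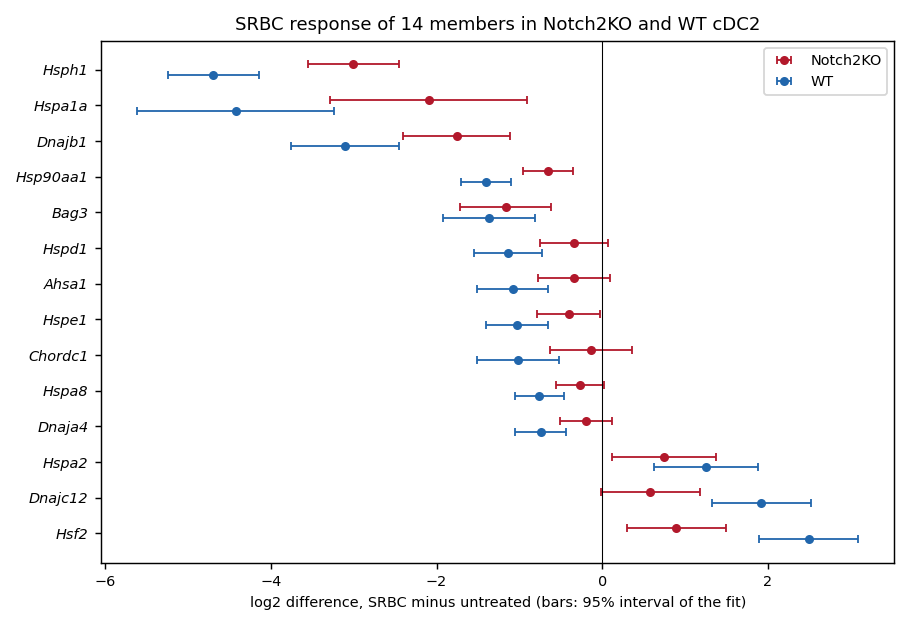
Log2 difference of SRBC minus untreated (horizontal axis) in Notch2KO and WT cells for the 14 members called in WT cells (rows), with the 95% interval of the fit. Every Notch2KO point lies nearer to 0 than the WT point of the same gene, and the intervals of Bag3 and Hspa2 overlap widely.

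Before treatment, Notch2KO and WT cells differed in few chaperones. Bag3 was higher, and Hsp90aa1, Dnaja4 and Hspa14 were lower, in Notch2KO untreated than in WT untreated cells. That is 1 member higher and 3 lower of 85, against a background of 2.95% and 2.16% of all genes (5.11% in either direction), so the share of members is close to that of all genes. Arrays did not overlap for 18 higher and 29 lower members, against 22% and 26.8% of all genes. The comparison shares its WT untreated arrays with the WT response, so a low or high value there enters both.

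Bag3 had 8.17 and 8.70 in Notch2KO untreated arrays, against 7.44 and 6.95 in WT untreated arrays (1.24 ± 0.28, adjusted p = 0.0244). Hsp90aa1 had 11.64 and 11.71 in Notch2KO untreated arrays, against 12.37 and 12.28 in WT untreated arrays (-0.65 ± 0.15, adjusted p = 0.0287). Hspa14, an Hsp70 relative that works at the ribosome, had 7.02 and 7.25 in Notch2KO untreated arrays, against 7.85 and 8.17 in WT untreated arrays (-0.87 ± 0.21, adjusted p = 0.0337). No groups overlapped in these 3 genes, nor in Dnaja4, which had 5.01 and 4.95 in Notch2KO untreated arrays, against 5.53 and 5.75 in WT untreated arrays (-0.66 ± 0.16, adjusted p = 0.0309). Hsph1 had 9.72 and 10.32 in Notch2KO untreated arrays, against 11.26 and 10.81 in WT untreated arrays, and did not pass (-1.01 ± 0.28, adjusted p = 0.0624). It did pass without both arrays that stood apart (adjusted p = 0.00928), without WT SRBC 1 (0.0469), without Notch2KO SRBC 3 (0.029), with array weights (0.0157), with only the groups compared (0.0161), with no mean-variance trend (0.0486) and among genes brighter than the median gene (0.0413). Neither Dnajb1 (-0.97 ± 0.32, adjusted p = 0.141) nor Hspa1a (-0.33 ± 0.59, adjusted p = 0.912) passed. Without either WT untreated array 0 members were called. Without Notch2KO untreated 1 Bag3 alone was called, and without Notch2KO untreated 2 none of the 4 was, while Dnajc9 was (-1.43, adjusted p = 0.0318).

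After SRBC, Bag3, Hspa1a, Dnajc15 and Dnajb14 were higher and Hsf2 and Dnajc12 lower in Notch2KO than in WT cells. These 4 and 2 of 85 members stand against a background of 3.36% of genes higher and 1.96% lower (5.32% in either direction), so these shares are near that of all genes. Arrays did not overlap for 15 higher and 7 lower members, against 9.96% and 10.4% of all genes. The median member differed by 0.06 and the median gene by -0.02. The comparison shares the SRBC arrays with both responses.

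Bag3 had 6.99, 7.31 and 7.50 in Notch2KO SRBC arrays, against 5.55, 6.10 and 5.83 in WT SRBC arrays. It was 2.72-fold higher with no overlap (1.44 ± 0.23, adjusted p = 0.00318), and it was higher in untreated Notch2KO cells too. Dnajc15, a J-domain protein of the mitochondrial inner membrane, had 9.03, 8.84 and 9.29 in Notch2KO SRBC arrays, against 7.92, 8.18 and 8.26 in WT SRBC arrays. Again no array overlapped (0.94 ± 0.18, adjusted p = 0.0112), and in untreated cells Dnajc15 differed by 0.71 ± 0.22 (adjusted p = 0.113). Dnajb14, a J-domain protein of the ER membrane, had 7.71, 8.06 and 7.54 in Notch2KO SRBC arrays, against 6.97, 6.99 and 7.14 in WT SRBC arrays (0.74 ± 0.18, adjusted p = 0.0335), and in untreated cells it differed by 0.70 ± 0.22 (adjusted p = 0.108).

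Hspa1a was 3.99-fold higher in Notch2KO SRBC than in WT SRBC cells (2.00 ± 0.48, adjusted p = 0.0355), with the array values given above for each response. Notch2KO SRBC 3, at 7.39, lay close to the highest WT SRBC value of 7.13, and without it the difference was 2.76 (adjusted p = 2.16e-05). Hsf2 differed by -1.49 ± 0.24 (adjusted p = 0.00422) and Dnajc12 by -1.05 ± 0.24 (adjusted p = 0.0287), and no array overlapped in either gene, with Notch2KO SRBC 3 nearest to WT. Bag3, Dnajc15 and Hsf2 passed with any 1 array left out. Hspa1a was lost in 8 of the 10 fits, Dnajc12 in 6 and Dnajb14 in 9, with highest adjusted p of 0.137, 0.115 and 0.109. Without both arrays that stood apart, 15 members passed, 6 higher and 9 lower, so that lower members then outnumbered higher ones. The 6 called before were among them, and Hsph1 and Dnajb4 joined those higher and Bag1, Bag5, Cct8, Dnajb5, Dnajb6, Dnajc14 and Hspa4 those lower. The share of all genes called in that fit is not given here, so this count has no background.

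**Figure D5:**
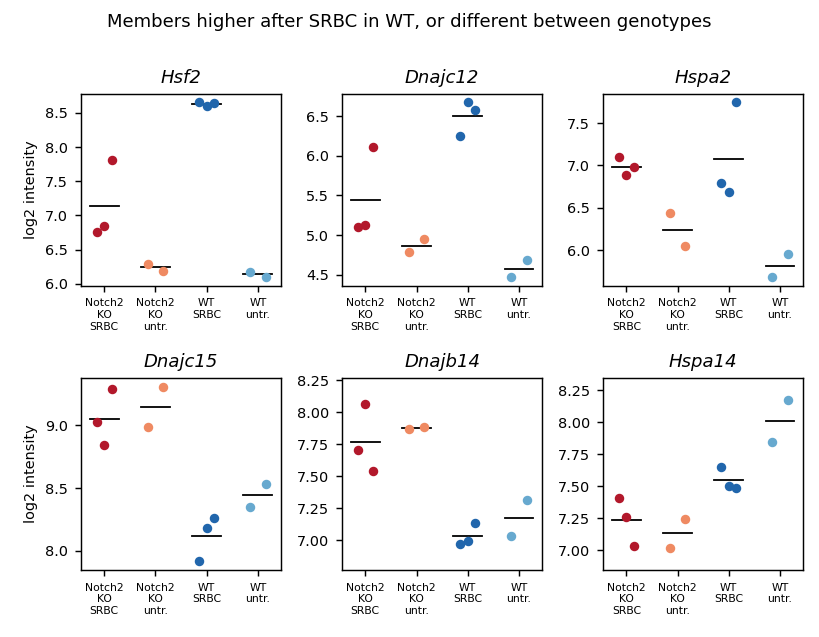
Log2 intensity (vertical axis, a scale of its own in each panel) of Hsf2, Dnajc12, Hspa2, Dnajc15, Dnajb14 and Hspa14 on each array of the Notch2KO SRBC, Notch2KO untreated, WT SRBC and WT untreated groups (points) with the group mean (line). Hsf2 is near 8.6 on all WT SRBC arrays and at 6.75, 6.84 and 7.81 on Notch2KO SRBC arrays, and Dnajc15 is higher on every Notch2KO array than on every WT array.

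Of 42 measured chaperone partners outside the families, such as prefoldins, immunophilins and mitochondrial proteases, 1 passed in the WT response. This was Fkbp4, an Hsp90-binding immunophilin, which averaged 6.25 in WT SRBC and 7.13 in WT untreated cells (-0.88 ± 0.22, adjusted p = 0.0485). In Notch2KO SRBC relative to WT SRBC cells, Cdc37, which brings kinases to Hsp90, was the partner that passed (0.65 ± 0.16, adjusted p = 0.0389). None of the 31 proteasome subunits passed in limma in any of the 5 comparisons, with 2 at an unadjusted p under 0.05 in the WT response. The median partner differed by 0.00 in the WT response, the median proteasome subunit by 0.21 and the median gene by 0.02.

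Of the 19 ER chaperones and ER stress genes, 15 had a negative difference in the WT response, with a median of -0.49 and 10.5% called lower, against 12.9% of members. Among them Dnajb9 (-0.78 ± 0.19, adjusted p = 0.043) and the stress factor Atf4 (-0.78 ± 0.16, adjusted p = 0.0227) were lower and Dnajc10, an ER J-domain reductase, was higher (1.11 ± 0.17, adjusted p = 0.00494). Hspa5 (BiP) differed by -0.84 ± 0.22 (adjusted p = 0.0597) and Hsp90b1 by -0.21 ± 0.18 (adjusted p = 0.648). After SRBC 5 of the 19 were higher in Notch2KO than in WT cells, with Pdia4, a protein disulfide isomerase, at 1.54 ± 0.21 (adjusted p = 0.00116), the lectin chaperone Canx at 0.77 ± 0.16 (adjusted p = 0.0159), and Dnajc3, Pdia3 and Hsp90b1 between 0.65 and 0.72. In untreated cells Pdia4 (1.11) and Canx (0.83) were higher as well.

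Of 26 immediate-early genes 4 (15.4%) were lower in the WT response, against 1.97% of all genes. They were Egr1 (-2.76 ± 0.44, adjusted p = 0.00574), Ier2 (-1.69 ± 0.25, adjusted p = 0.00398), Egr2 (-1.66 ± 0.41, adjusted p = 0.0499) and the phosphatase gene Dusp1 (-0.73 ± 0.16, adjusted p = 0.0262), and none of the 26 was higher. The median of the 26 was -0.67. Fos (-2.08 ± 0.54, adjusted p = 0.0591) and Jun (-1.56 ± 0.39, adjusted p = 0.0505) did not pass. In the Notch2KO response Ier2 (-1.50) and Zfp36 (-0.96) were lower, 2 of the 26 (7.69%) against 0.166% of all genes. The summed linear intensity of the 26 genes was 26486, 20842 and 16186 in Notch2KO SRBC arrays, 33478 and 33564 in Notch2KO untreated arrays, 25581, 18566 and 18351 in WT SRBC arrays and 37190 and 36342 in WT untreated arrays. Every SRBC array lay below every untreated array.

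Fos was set beside the chaperones array by array. It had 9.45, 8.96 and 7.67 in Notch2KO SRBC arrays and 9.16, 7.42 and 7.55 in WT SRBC arrays. Notch2KO SRBC 3 had the lowest Fos of its group, and the lowest Hspa1a, Hsph1 and Dnajb1. WT SRBC 1 had the highest Fos of its group and the highest Hspa1a, and the lowest Hsph1. Its Dnajb1 value (6.46) lay between those of WT SRBC 2 (6.07) and WT SRBC 3 (6.48). The part of the immediate-early genes in the chaperone differences was not tested.

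Markers of other cells also moved. Of 10 macrophage markers 4 were higher in the WT response, and 6 were higher in Notch2KO than in WT cells both untreated and after SRBC. Their summed linear intensity was 2571 to 3139 in Notch2KO SRBC, 2044 and 2666 in Notch2KO untreated, 1467 to 2021 in WT SRBC and 776 and 852 in WT untreated arrays. Of 7 monocyte markers Cd14 was higher in the WT response (2.68, adjusted p = 0.034). Of the same 7, 6 were higher in Notch2KO than in WT cells untreated and 6 after SRBC. The seventh, Treml4, was lower in untreated Notch2KO than in untreated WT cells (-1.40) and did not pass after SRBC (0.42). Of 7 neutrophil markers S100a8 was higher in both responses (3.07 in Notch2KO and 2.85 in WT cells), and their summed linear intensity was 434 to 1068 in Notch2KO SRBC, 156 and 357 in Notch2KO untreated, 319 to 435 in WT SRBC and 150 and 154 in WT untreated arrays. Of 11 cDC2 markers Itgam (-1.44), Cd4 (-1.32) and Cd209a (-1.83) were lower in the WT response, and the summed linear intensity of the 11 was 7217 to 8829 in Notch2KO SRBC, 10460 and 10763 in Notch2KO untreated, 7676 to 8374 in WT SRBC and 9844 and 10170 in WT untreated arrays. Of 7 cDC1 markers Xcr1 (1.09) and Cd8a (0.96) were higher in the WT response. There 5 of the 7 had a positive and 2 a negative difference, and Tlr3, the lowest, did not pass (-0.83, adjusted p = 0.0675). In Notch2KO relative to WT cells Clec9a (3.00) and Cadm1 (1.72) were higher untreated, and after SRBC Cadm1 (1.08) and Tlr3 (0.94) were higher and Cd8a (-1.01) was lower. The summed linear intensity of the 7 was 614 to 861 in Notch2KO SRBC, 1029 and 730 in Notch2KO untreated, 583 to 629 in WT SRBC and 437 and 506 in WT untreated arrays. Of 4 markers of plasmacytoid dendritic cells Tcf4 was higher in Notch2KO than in WT cells untreated (0.90) and after SRBC (0.74), and Bst2 after SRBC (1.48). Of 6 B cell markers Cd22 was lower in the WT response (-1.83), where 3 of the 6 had positive differences. Cd22 and Ms4a1 were lower in Notch2KO than in WT cells untreated (-2.68 and -1.39) and after SRBC (-1.26 and -0.89). The other 4 B cell markers did not pass, and in untreated cells their differences were positive, from 0.04 (Ebf1) to 0.87 (Cd79b). Of 6 T cell markers Cd5 was lower in Notch2KO than in WT cells untreated (-1.47) and after SRBC (-1.10). Of 7 natural killer cell markers Klrd1 was lower in the same comparisons (-0.68 in each), and no other marker of these cells passed in any comparison. None of these markers had an intensity of 0, and their part in the chaperone differences was not tested.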

How the data were processed

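Biotin-labelled RNA (Ambion WT Expression kit, per the labels' protocols) gave 1 deposited intensity per probe set and array, linear and already scaled between arrays by the authors, by a method that the sources used here do not name. Values were log2 transformed. Of 28853 probe sets, 21789 named 1 gene symbol, 1621 several and 5443 none. The probe set with the highest mean stood for each of 19938 genes (7 members had several). limma 3.58.1 in R 4.3.3 (lmFit, eBayes with a trend, two-sided) fitted 4 group means, with 6 residual and 5.25 prior degrees of freedom, and gave 5 comparisons. The fit was tested on simulated data. Members and lists were chosen with earlier results of these data known. Genes named were all members past the threshold, a set of core members and the extremes of each role whatever their p, members with separate groups among the 10 largest differences, and up to 6 genes past the threshold of each other list. Other members were named to account for each role or window, or after their values were seen. Alternatives changed the probe set, filter, normalization, centring, variance model, array weights, arrays fitted, block and size of change. Promoter windows were searched with Python 3.11.15.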

Additional observations from a re-analysis of the deposited data

How the results depend on the processing

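The 14 member calls of the WT response stayed within 1.5 times under the 11 alternatives that kept or reweighted arrays or left out both arrays that stood apart, with 12 to 21 calls, and lay between 5 and 16 with single arrays left out. The 2 calls of the Notch2KO response became 4 with array weights, 1 with only the groups compared, 5 without both arrays that stood apart, and 1 to 4 with single arrays left out. The 4 calls between untreated genotypes became 8 with array weights, 9 with only the groups compared, 8 without both arrays, 1 where a change of at least 2-fold was asked, and 0 to 6 with single arrays left out. The 6 calls between genotypes after SRBC became 3 with only the groups compared, 15 without both arrays, and 3 to 7 with single arrays left out. The interaction, with 0 calls, had 2 with array weights (Hsf2 and Hsph1), 7 without both arrays and 0 to 2 with single arrays left out. The interaction of Bag3 (0.20) changed sign, to -0.053 without both arrays, -0.047 without WT untreated 1 and -0.065 without Notch2KO untreated 1, and lay between -0.065 and 0.47 with single arrays left out. The cause of these shifts was not tested, and the share of all genes called under each alternative is not given here. With the replicate number as a block the counts were 13, 1, 5, 7 and 0 in the order given. Deviations of same-numbered arrays correlated between -0.218 and 0.479 over 13 pairs, and 3 of 6 SRBC arrays correlated best with their own number. In groups of 2 arrays the deviations mirror each other, so pairs with those groups carry little information. The check therefore cannot say whether the numbers pair the arrays. Over all alternatives, of the values of called members and of the interactions of the 14 members called in WT cells, 684 kept their direction and side of the threshold, 87 lost the call, 9 interactions gained one and 3 changed sign. Counting all 85 members, those not called that passed under at least 1 alternative numbered 9 in the WT response, 3 in the Notch2KO response, 6 between untreated genotypes, 11 after SRBC and 7 in the interaction. The number of arrays limits the precision, and no detection values were used for dim genes.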
